A study of Arabidopsis thaliana with 9 samples.

Results

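Root-preferential long intergenic non-coding RNAs (lincRNAs) of Arabidopsis thaliana were the lincRNAs whose array signal was higher in root than in both leaf and inflorescence. The choice was made on the log2 signals deposited by the authors. A lincRNA was any array entry named with a chromosome number and TU, read to its first 11 characters, and its probe of highest mean on the 9 arrays stood for it. It was kept when that probe was well above background on all 3 root arrays, when its root mean lay at least 1 (log2) above both the leaf mean and the inflorescence mean, and when its lowest root value exceeded the highest of the other 6 values. Of the 4499 lincRNAs on the array, 1392 were well above background on all 3 root arrays, 219 of these also passed the difference of 1, and 183 met all conditions. The 183 made up 4.07% of the lincRNAs and 13.1% of those detected on every root array. Because root signals chose them, their excess in root is described below without a test.

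RNA came from wild-type plants, 3 biological replicates per organ and 1 array per replicate. The growth protocol names Col-0 for all plants, whereas the ecotype entries of the samples carry a running number after Col and were not used. Leaf and root were taken from 30-day-old plants in hydroponic culture (full-strength MGRL medium). Inflorescences (flowers, buds and the youngest siliques) were cut from 4-week-old plants raised on solid half-strength MS medium or in the greenhouse. Culture and age therefore cannot be told apart from organ in any comparison with inflorescence. The growth temperature was 22 °C and the light period 16 h. Each sample was a whole organ, so that a lower share of the cells that make an RNA and less of that RNA per cell cannot be told apart.

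lincRNAs are transcripts that arise between annotated genes and lack a long open reading frame. Some in plants act as decoys for microRNAs, as IPS1 does in phosphate-starved roots, and others, such as APOLO, shape chromatin at auxin-responsive genes during root branching. For most lincRNAs no function is known. The names of the 183 are identifiers of the array design, and none was matched to an annotation here.

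Probes well above background made up 10.7% to 39.9% of an array. The lowest share was that of leaf replicate 2, where 17 of the 183 root-preferential lincRNAs were detected, against 118 and 96 on leaf replicates 1 and 3 and 89 to 129 on the inflorescence arrays. Slide 1 carried replicates 1 and 2 of each organ, and slide 2 carried replicate 3. None of the 25 root, leaf and flower marker genes looked up was probed, so organ identity could not be checked by them. Brightness depends on the probe, and levels are compared only between organs for the same probe.

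The lincRNAs with the widest separation ranged outside root from undetected on every array to well above background on most. The gap, the root mean minus the higher of the leaf and inflorescence means, had a median of 2.24 over the 183 on the deposited log2 scale and ran from 1.01 to 11.39. It was at least 2 in 104 of them, at least 3 in 50 and at least 5 in 12. On the deposited values the organ closest to root was inflorescence in 104 members and leaf in 79. On the scaled signals inflorescence was above leaf in 67 members, and in 94 without leaf replicate 2. The split over all lincRNAs is not given. Many gaps rest on dim signals outside root. On the scaled signals the median gap was 2.22, and it fell to 0.60, with 110 of the 183 under 1, when signals below a common floor were set to that floor, and to 0.91, with 96 under 1, when the probes of a lincRNA were averaged. After normexp background correction it was -0.03. Values from here on are log2 processed signals scaled to a common 75th percentile, unless they are called deposited.

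AT4TU029580 on chromosome 4 had the largest gap, with signals of 14.90, 14.81 and 15.00 in the 3 root replicates. Its leaf signals were 2.92, 3.26 and 3.71 and its inflorescence signals 3.52, 3.42 and 3.56, so that leaf and inflorescence overlapped and root stood 11.40 above the higher of their means. It was well above background on 2 of 3 leaf arrays and on all inflorescence arrays. AT1TU043160 on chromosome 1 reached 11.12, 11.12 and 10.97 in root and was not well above background on any other array. For an organ with no array well above background only a bound can be given, set by each array's dimmest signal well above background or by the probe's own signal if brighter. Root exceeded leaf by at least 225-fold for AT1TU043160 and inflorescence by at least 481-fold. The dimmest signal well above background was 5.32 on leaf replicate 2 and 1.77 to 2.53 on the other arrays. That array lowers the leaf bounds, so leaf and inflorescence bounds cannot be set against each other. AT1TU066270, also on chromosome 1, gave 13.29, 13.28 and 13.20 in root, between 2.85 and 3.85 in leaf and between 2.68 and 3.13 in inflorescence, a gap of 9.85 with leaf detected on 2 of 3 arrays. Its root replicates lay within 0.1 of each other.

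Among the next members by gap, AT5TU070210 on chromosome 5 had root signals of 9.11, 9.10 and 9.05, and AT2TU035760 on chromosome 2 had 8.32, 8.26 and 8.38. Neither was detected outside root. They were at least 56.9-fold and at least 33.5-fold higher in root than in leaf, and at least 122-fold and at least 71.5-fold higher than in inflorescence. AT1TU048160 gave 11.37, 11.31 and 11.12 in root, 4.70, 4.74 and 2.66 in leaf and 4.19, 3.90 and 2.56 in inflorescence. Its slide 2 arrays were lower than its slide 1 arrays in leaf and inflorescence, and no value outside root came near those in root. AT1TU072870 was measured on all inflorescence arrays (3.19, 3.21 and 2.17) and on no leaf array, with 9.23, 9.13 and 8.93 in root, at least 57.4-fold above leaf. AT5TU092100 stood at 8.89, 8.77 and 8.80 in root with a gap of 5.75, and AT1TU081090 at 9.43, 9.41 and 9.34 with a gap of 5.17. AT1TU096040 was less even in root (6.58, 6.35 and 7.03), was undetected elsewhere, and was at least 10.4-fold higher in root than in leaf. That was its standing probe alone. Another probe of it, detected on all 3 root arrays, had a deposited gap of 0.46 and overlapped the other organs. The remaining probe, detected on 1 root array, had -0.31.

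**Figure D1:**
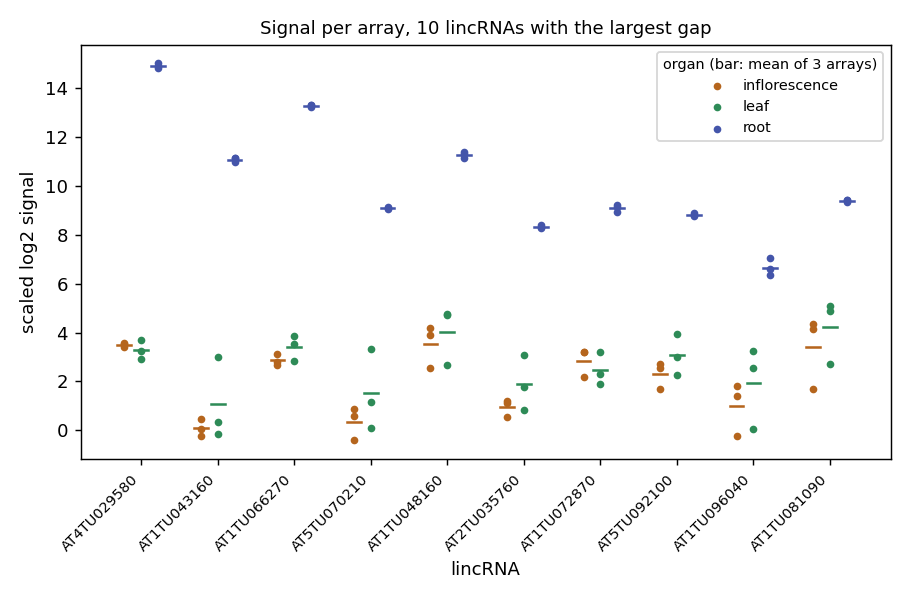
Scaled log2 signal (vertical axis) of the 10 lincRNAs with the largest gap between root and the other organs, 1 point per array and a bar at the mean of 3 arrays, coloured by organ. The root points of AT4TU029580 lie between 14.81 and 15.00, and for all 10 lincRNAs every root point lies above every leaf and inflorescence point.

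Detection outside root divided the members. Of the 183, 39 (21.3%) were well above background on no leaf or inflorescence array, and 16 (8.74%) were well above background on all 9 arrays. No leaf array detected 61, and no inflorescence array detected 47. The inflorescence arrays all detected 84 members and the leaf arrays all detected 17, but leaf replicates 1 and 3 together detected 92. Signals of members undetected in leaf were higher on leaf replicate 2 than on the mean of leaf replicates 1 and 3 by a median of 2.47, and for the members detected on all leaf arrays this difference had a median of -0.01. The part of that array in the leaf counts was not tested apart from the counts without it. AT1TU072870, AT2TU064650, AT3TU026210, AT3TU056180 and AT3TU071540 were detected on all inflorescence arrays and no leaf array, and AT1TU057410 and AT3TU009860 on 2 leaf arrays and no inflorescence array (named here after their values were seen, and by a looser condition for leaf).

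**Figure D2:**
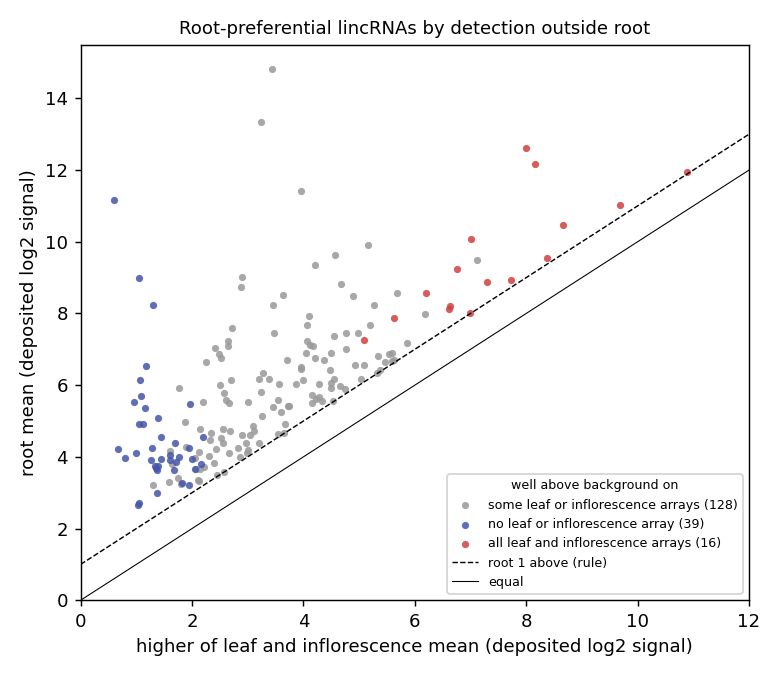
Root mean (vertical axis) against the higher of the leaf and inflorescence means (horizontal axis), both as deposited log2 signal, 1 point per root-preferential lincRNA and coloured by detection outside root. All 183 points lie on or above the dashed line of the rule, and the 39 undetected outside root lie toward the left, among the dimmest outside root.

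The members detected on all 9 arrays had fold differences that do not rest on a floor. AT5TU074240 on chromosome 5 had root signals of 12.52, 12.52 and 12.53, leaf signals of 7.71, 7.74 and 7.90 and inflorescence signals of 7.93, 8.08 and 7.96. Root exceeded inflorescence by 4.53 and leaf by 4.74, and its root replicates had an SD of 0.0081 (n = 3). AT1TU020060 on chromosome 1 followed, with 11.88, 11.97 and 12.15 in root and values from 8.02 to 8.27 on the other 6 arrays. In both lincRNAs leaf and inflorescence were close together and far below root. AT1TU088310 was bright in every organ, at 11.40, 11.82 and 12.08 in root, 10.78, 10.71 and 11.13 in leaf and 10.74, 10.57 and 10.93 in inflorescence. Its deposited gap of 1.05 was close to the limit, and on the scaled signals the gap was 0.89.

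At the limit itself, the members with the smallest deposited gaps were AT5TU047540 (1.01), AT3TU039740 (1.01) and AT4TU055940 (1.01). The lincRNAs that met every other condition and fell just short were AT4TU028430 (0.98), AT3TU057870 (0.98) and AT5TU036500 (0.98). The deposited values of AT4TU028430 were 7.12, 6.98 and 7.10 in root against 5.43 to 6.21 elsewhere, so its organs were separated as clearly as those of AT5TU047540, with 7.91 to 8.09 in root against 6.75 to 7.11. A further 36 lincRNAs passed the gap but overlapped between root and another organ.

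Each lincRNA carried up to 3 probes, and 181 of the 183 had 3. The other probes measure the same contrast on the same arrays and describe the members without testing them. Of the 364 other probes, 152 were well above background on all 3 root arrays and 151 on none. Among the 152, 132 (86.8%) had a deposited gap of at least 1 and 148 (97.4%) a gap above 0. Choosing them by detection in root favours a positive gap, and the shares over all lincRNA probes so chosen are not given. For 4 members, AT1TU020060, AT2TU001240, AT5TU049660 and AT5TU050820, another probe detected in root had a gap below 0, the lowest being -0.42 for AT2TU001240, but no such probe had a root mean below the mean of the other 6 arrays. The second probe of AT1TU020060, its only other one, had a gap of -0.26 against 4.01 for the probe that stood for it.

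The probes of AT5TU074240 had deposited gaps of 4.63, 4.78 and 4.67. Those of AT1TU043160 were 10.58, 9.44 and 7.09. For the standing probe, signals outside root were not above background, so the bounds given above are the minimum measured by that probe alone. AT1TU066270 spread from 3.82 to 11.85 by probe, and for AT1TU081090 both other probes gave larger gaps (9.22 and 7.76) than the standing probe (5.16). AT4TU029580 had 1 probe at 7.75 and 1 that no root array detected. For 49 members, no other probe was above background on any root array, so that a single probe carried the result, as it did for AT1TU091960 and AT4TU006280. All probes reached a gap of at least 1 in 55 members.

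**Figure D3:**
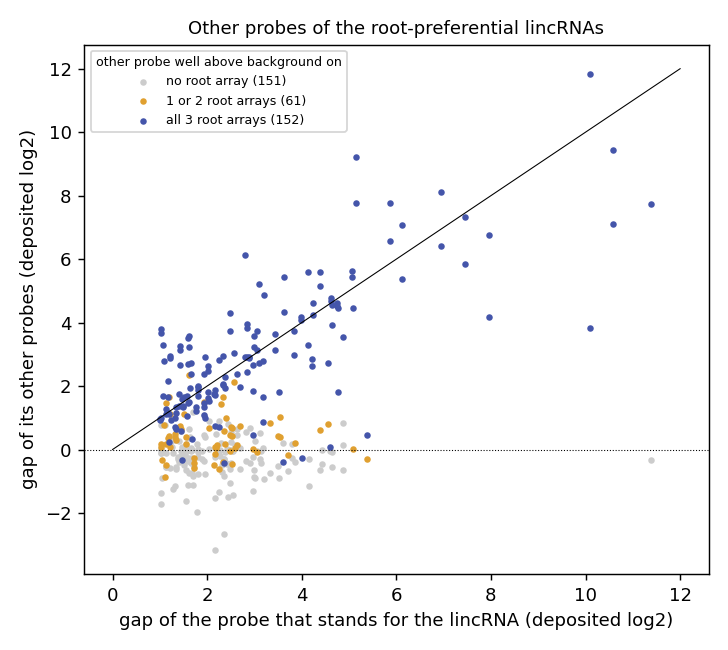
Deposited log2 gap of the other probes of each root-preferential lincRNA (vertical axis) against the gap of the probe that stands for it (horizontal axis), coloured by the number of root arrays on which the other probe was well above background. Of the 152 probes detected on all root arrays, 148 lie above 0 and 132 at 1 or more, and a further 151 were detected on none. Detection on the root arrays favours a gap above 0.

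Root replicates of the members were close, with a median SD of 0.23 over the 183 against 0.59 in inflorescence and 0.89 in leaf. The rule favours a small spread in root, so this is part of the choice. AT4TU006280 had the largest spread in root, 5.53, 2.06 and 3.66 in replicates 1 to 3. On the scaled signals it overlapped leaf replicate 2 (3.02), although on the deposited values its root signals of 5.16, 1.82 and 4.26 lay above a highest other value of 1.65. AT5TU074230 gave 7.08, 6.63 and 4.12 and AT1TU091960 9.25, 9.58 and 6.75, both lowest on slide 2. For AT1TU091960, placed at 27314140 on chromosome 1 by its probe name (the build of such starts was not given), the highest value outside root was 4.63, so root stayed apart on every array. The rule required no overlap on the deposited values of the same arrays, which favours none on the scaled signals, and the share over all lincRNAs is not given. On the scaled signals, 156 of the 183 members had no overlap between root and the other organs. Of the 29 that did not meet the full rule there, 27 overlapped, 10 of them with leaf replicate 2 alone, and 7 had a gap under 1.

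To describe the root excess in arrays that had not chosen the members, the rule was applied to the 6 slide 1 arrays alone, which gave 210 lincRNAs, 166 of them among the 183. On slide 2, root lay above both leaf and inflorescence in 198 of the 210 (94.3%), and by at least 1 in 165 (78.6%). Among all 2407 lincRNAs well above background on both slide 1 root arrays, these shares were 34.1% and 10.8%. The median deposited gap was 1.78 on slide 1 and 1.79 on slide 2. With 1 array per organ on slide 2 there is no test, and the deposited values had been made from all 9 arrays together. The 12 lincRNAs whose root value did not exceed both others on slide 2 had slide 1 gaps under 2, and AT2TU028320, chosen after its value was seen, went furthest (1.76 on slide 1 and -1.54 on slide 2).

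**Figure D4:**
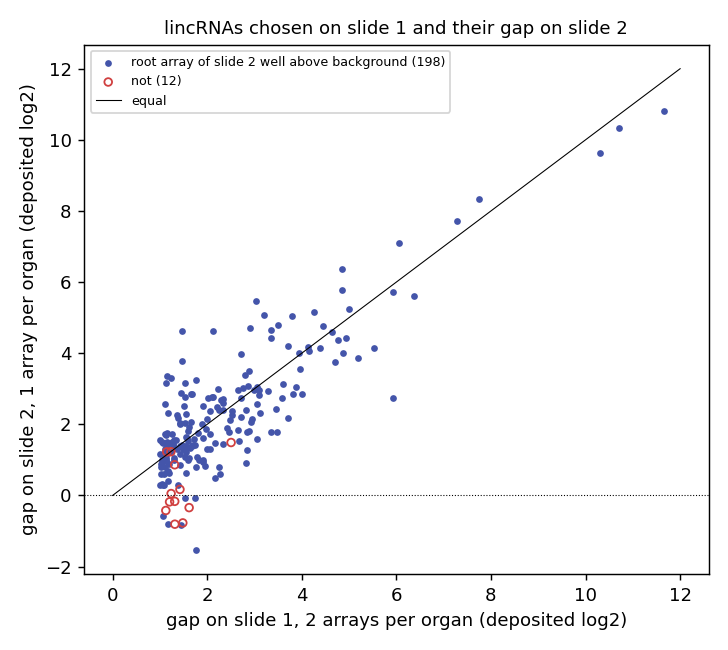
Gap between root and the higher of the other organs on slide 2 (vertical axis, 1 array per organ) against slide 1 (horizontal axis, 2 arrays per organ), deposited log2, for the 210 lincRNAs chosen on slide 1. Of the points, 198 lie above 0 on slide 2, and open circles mark lincRNAs whose slide 2 root array was not well above background.

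The contrast whose difference the rule did not use is inflorescence against leaf. Of the root-preferential lincRNAs, 15 of 183 (8.20%) passed, 5 higher in inflorescence and 10 higher in leaf. Over all 2116 genes tested the share was 18.1%, with 8.32% higher in inflorescence and 9.78% higher in leaf, and over the 1614 lincRNAs tested it was 13.1%. A call needed a limma adjusted p under 0.05, Benjamini-Hochberg over all 2116 genes, and at least 2-fold. The error of that fit drew on the root arrays too, where the rule favoured a small spread. The median root SD was 0.23 over the members and 0.48 over the lincRNAs detected on all root arrays. Standard errors and p-values of the members are therefore not free of the choice. The median log2 difference (inflorescence minus leaf) was -0.32 over the members and -0.23 over all genes tested. The members' standard errors had a median of 0.57, against 0.46 over all genes, and 25 members differed by at least 1 without passing. These shares cannot be read against each other, since genes were tested when detected on every array of any organ and all 183 members met this through root. For 98 of them no other organ met it, and 4 of these 98 passed. Among the 85 members and 1762 genes detected on all arrays of inflorescence or of leaf, 11 members passed against 21.0% of the genes.

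Of the members higher in inflorescence, AT3TU026210 on chromosome 3 (start 7472089 in its probe name) differed most. Its signals were 5.69, 5.42 and 6.05 in inflorescence, 2.41, 3.69 and 1.13 in leaf and 8.52, 8.66 and 8.77 in root. No leaf array detected it, and inflorescence was at least 5.52-fold above leaf (fitted log2 difference 3.31 with an SE of 0.57, n = 3 per organ, limma adjusted p = 0.00441). The organs did not overlap, so that it stepped down from root to inflorescence to leaf. AT1TU056620 showed the same order, with 9.58, 9.41 and 9.54 in root, 7.19, 7.05 and 7.24 in inflorescence and 4.51, 5.56 and 4.94 in leaf (2.15 ± 0.26, adjusted p = 0.000682, leaf detected on 2 of 3 arrays). AT3TU057790 (1.47 ± 0.19) and AT1TU003170 (1.45 ± 0.21) followed, with adjusted p of 0.000837 and 0.00156. AT5TU070830, the member of this group detected on all 9 arrays, gave 6.90, 7.19 and 7.05 in inflorescence, 6.10, 6.03 and 5.99 in leaf and 10.15, 10.06 and 10.09 in root. It differed by 1.01 ± 0.14 (adjusted p = 0.00155), close to the 2-fold limit, and without inflorescence replicate 2 or leaf replicate 3 it fell short of that limit (0.94 and 0.98).

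Toward leaf, AT1TU057410 on chromosome 1 had 4.93, 4.41 and 5.03 in leaf against 0.97, 2.12 and 0.34 in inflorescence, where no array detected it, and 9.73, 9.63 and 9.59 in root. Leaf was at least 6.19-fold above inflorescence (fitted difference -3.65 ± 0.43, adjusted p = 0.000575), and root was at least 180-fold above inflorescence. AT5TU087180 on chromosome 5 was detected on all arrays, with 7.47, 7.45 and 6.94 in leaf, 4.53, 3.93 and 2.89 in inflorescence and 9.42, 8.92 and 8.38 in root. It differed by -3.50 ± 0.45 (adjusted p = 0.000928), an 11.3-fold difference with no overlap between any of the organs. AT1TU070790 (-2.34 ± 0.23, adjusted p = 0.000245) had a root mean of 9.96 ± 0.056 (SD, n = 3), between 4.88 and 5.73 in leaf and between 2.89 and 3.21 in inflorescence. AT4TU050200 differed by -2.54 ± 0.71 (adjusted p = 0.0358), and its call was lost without inflorescence replicate 1, leaf replicate 1 or 2, or any root replicate. Neither leaf nor inflorescence detected AT4TU050200, AT1TU057410, AT3TU009860 or AT3TU078750 on all arrays. These 4 called members entered the test through root alone, the organ that chose them, so their p-values are not free of the choice. AT3TU078750 passed with a fitted difference of -1.96 ± 0.41, but it was undetected in inflorescence and above background on 1 leaf array, so that only a difference of at least 1.05-fold was measured. AT3TU009860 (-1.65 ± 0.32) was undetected in inflorescence and at least 2.02-fold higher in leaf. The remaining calls toward leaf were AT2TU031070, AT1TU046430, AT3TU042350 and AT5TU050820, with differences from -1.23 to -1.10. AT2TU031070 was the call kept in the fewest alternatives (9 of 23), and it was lost without inflorescence replicate 1 or 3, leaf replicate 1 or 2, or any root replicate. AT5TU050820 was lost without inflorescence replicate 1 and AT3TU042350 without inflorescence replicate 3. All 15 differences had the same sign on both slides, whose arrays had all entered the calls.

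**Figure D5:**
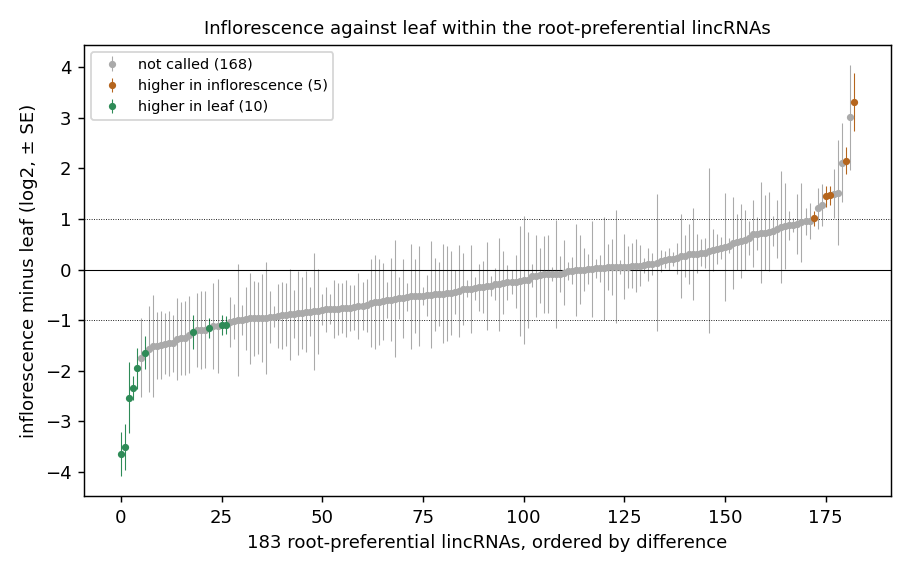
Inflorescence minus leaf log2 difference (vertical axis) with its standard error from limma for the 183 root-preferential lincRNAs, ordered by the difference and coloured by call, with dotted lines at 1 and -1. The 10 calls toward leaf lie between -3.65 and -1.10 and the 5 toward inflorescence between 1.01 and 3.31.

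The balance of these calls depended on leaf replicate 2 and on the scaling. Without leaf replicate 2, 20 members passed, against 19.3% of all genes, 12 higher in inflorescence and 8 higher in leaf, against 10.3% and 9.03% of all genes, and 13 of the original 15 were among them. By sign, 67 members were higher in inflorescence with that array and 94 without it. The median difference moved from -0.32 to 0.03 over the members and from -0.23 to -0.09 over all genes tested. The split by sign over all genes is not given, so a change in the members alone cannot be read from these counts. AT3TU056180 and AT3TU071540 (named after their values were seen) did not pass with leaf replicate 2 and passed without it. Leaf signals of AT3TU056180 were 0.41, 4.55 and 0.34 in replicates 1 to 3 and its inflorescence signals 4.99, 4.62 and 4.72, and for AT3TU071540 leaf gave 0.23, 3.06 and -0.26 and inflorescence 3.45, 2.85 and 3.08. The share of the called members that were higher in inflorescence was 33.3%. Over all genes, 176 of the 383 calls were higher in inflorescence. The members' share was 62.5% on the deposited values and 64.7% after quantile normalization. It was 50% with the 75th percentile of all probes and 71.4% with each array's median. The split over all genes is not given for these scalings, so a change in the members alone cannot be read from the shares. The called members also changed. On the deposited values and after quantile normalization 8 of the 15 remained each time, and AT1TU046430, AT3TU009860, AT3TU042350, AT3TU057790, AT3TU078750, AT5TU050820 and AT5TU070830 were lost in both. With the 75th percentile of all probes 5 remained and with each array's median 4. These scalings moved the median difference over all genes from -0.23 to 0.02, 0.02, 0.02 and 0.41.

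The members lay on all 5 chromosomes. Chromosome 1 held 59 (32.2% of the members, 25.9% of all lincRNAs), chromosome 2 held 24 (13.1% and 20.2%), chromosome 3 held 34, chromosome 4 held 23 and chromosome 5 held 43. Of the lincRNAs detected on all root arrays, the members were 16.3% on chromosome 1 and 8.89% on chromosome 2, with the other chromosomes between. A start was given in the probe names of 33 members and of 930 lincRNAs.

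Some members carried consecutive design numbers, which in the 33 members with a start followed its order along the chromosome. The array held 89 lincRNAs numbered directly before or after a member. Of these, 10 (11.2%) were members themselves, against 4.07% of all lincRNAs, and 33 were detected on all root arrays, of which the 10 made up 30.3% against 13.1%. They formed 5 pairs: AT1TU003160 with AT1TU003170, AT1TU070780 with AT1TU070790, AT1TU091000 with AT1TU091010, AT5TU074230 with AT5TU074240 and AT5TU092090 with AT5TU092100. The deposited gaps within a pair differed, at 1.61 and 4.75 for AT1TU070780 and AT1TU070790 and at 2.18 and 4.63 for AT5TU074230 and AT5TU074240. On the scaled signals AT5TU074230 varied in root by replicate while AT5TU074240 was even. AT5TU092090 gave 9.08, 8.91 and 8.72 in root and AT5TU092100 8.89, 8.77 and 8.80, with all other values of both at 5.26 or lower. AT1TU003170 was called between inflorescence and leaf and its neighbour AT1TU003160 was not (0.12 ± 0.22). Whether the pairs are pieces of a single transcript was not tested.

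Applied in the same form to the other organs, the rule chose 92 lincRNAs for inflorescence and 79 for leaf, against 183 for root. The leaf count rested on leaf replicate 2. Without that array it was 172, with 97 for inflorescence and 184 for root. The lincRNAs detected on all arrays of an organ numbered 1392 in root, 1260 in inflorescence and 448 in leaf, and 1460 on leaf replicates 1 and 3. Among the other classes on the array, the root rule chose 41 of 302 annotated non-coding loci (13.6%), 13 of 177 microRNA precursors (7.34%) and 9 of 94 protein-coding genes (9.57%). These shares were not tested against that of the lincRNAs.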

How the data were processed

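Total RNA was labelled with Cy3 and hybridised to 1-colour Agilent arrays, 9 in all (3 organs, 3 replicates, grouped by the sample titles). Per the file headers, Agilent Feature Extraction 10.5.1.1 wrote the processed signal, a linear background-subtracted intensity, and the flags used here (well above background, outlier, saturated). The authors' deposited table of the whole series held log2 signals, with a median of 1.41 in every column and correlations of 0.966 to 0.998 with the scanner's processed signals on the log2 scale. They were not centred per gene and are signals, so no direction enters. The making of their scale is not described in the labels or headers. The rule was applied to these values.

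For all other values, log2 processed signals were scaled by subtracting each array's 75th percentile over the 1367 probes well above background on all 9 arrays and adding back the mean percentile. The fits left out 9 promoter probes, control spots and 71 outlier spots. Saturation affected 0 gene spots. The probe with the highest deposited mean stood for its gene. Inflorescence against leaf was compared by limma (version 3.58.1, R version 4.3.3, lmFit then eBayes, 3 organ means from 9 arrays) over 2116 genes, each detected well above background on every array of 1 organ or more, after the code had been tested on simulated data. Errors are standard errors of that fit unless SD is written. The arrays' number limits precision. Replicates are called biological in the labels; whether each came from separate plants is not stated, and p-values measure the spread between these samples.

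Samples with the same replicate number deviated together across genes (correlations of 0.134 to 0.633 between organs). Different numbers on slide 1 did so too (0.193 to 0.543), and arrays on different slides correlated at -0.585 to -0.190. The other slide held replicate 3 alone, so the slide and replicate 3 cannot be told apart as the source of the shared deviation. Fits with the replicate number and with the slide as a block were both run. Named lincRNAs were the 10 with the largest gap, the 5 with the brightest root signal, up to 6 called in each direction, 3 on each side of the limit, the nearest 4 pairs by number, up to 4 with a detected probe going the other way (there were 0), and the 3 with the largest root spread. A probe went the other way when its root mean lay below the mean of the other 6 arrays, not when its gap was below 0. The members, lists and rules were chosen with earlier results of these data known. Alternatives changed the values, background correction, scaling, filter, probe averaging, floor, slide and replicates. The files lack a mean spot signal, so normexp used the median signal.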

Additional observations from a re-analysis of the deposited data

How the results depend on the processing

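The 15 called root-preferential lincRNAs became 6 and 211 of all genes were called (in place of 383) with the 75th percentile of all probes, 7 and 233 with each array's median, 3 and 238 with a common floor, 2 of 16 tested and 177 with detection on all 9 arrays, 0 and 97 after normexp (by limma, 1 member at an unadjusted p under 0.05), and 0 and 63 with normexp without an offset (1 likewise). No filter gave 8 members and averaged probes 8. Their counts over all genes are not given here, so a change in the members alone cannot be read from them. Leaving out a single array gave 13 to 25 members, the most without leaf replicate 3, and 330 to 409 genes. With the replicate block 22 members and 497 genes passed, and with the slide block 22 and 510, all 15 among them both times. The slide block without leaf replicate 2, chosen after seeing the data as was normexp without an offset, gave 27 members. Its count over all genes is not given here either. By normexp 3 calls changed sign: AT3TU026210 (-0.060), AT3TU057790 (-0.19) and AT1TU003170 (-0.20). The cause was not tested.

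The number of members was 22 on normexp values, 23 without the offset, 104 at a gap of 2, 55 when every probe had to pass, 126 on probe means (103 shared), 167 on scaled signals (154 shared), and 178 to 233 without a single array. After normexp the scaled gap turned negative for 97 of the 183. It did so for AT1TU003160 (-0.088), AT1TU070780 (-2.59e-05), AT1TU091000 (-0.66, and -0.48 without an offset), AT1TU091010 (-0.38), AT3TU009860 (-0.016), AT3TU039740 (-0.42), AT3TU057870 (-0.86 and -1.19), AT3TU078750 (-0.54 and -0.15), AT4TU006280 (-0.58), AT4TU055940 (-0.40 and -0.23), AT5TU036500 (-0.83 and -1.08) and AT5TU074230 (-0.13). With probes averaged it did so for 29 of the 183, among them AT1TU088310 (-0.11), AT3TU039740 (-0.34), AT3TU057790 (-0.032), AT4TU006280 (-0.19) and AT4TU055940 (-0.68), and for AT3TU057870 (-0.55) and AT5TU036500 (-0.46), just outside the limit. Without a single array, the gaps of AT3TU057870 and AT5TU036500 ran from -0.12 to 0.83 and from -0.21 to 0.90. The median gap, 2.22 as reported, was -0.03 after normexp, 0.64 without its offset (55 negative), 0.91 with probes averaged and 0.60 with a common floor (0 negative, 110 under 1). The other scalings and the deposited values left no member with a negative gap and medians of 2.24 to 2.66.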
